A study of Mus musculus with 36 samples.

Results

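The response of the liver transcriptome to refeeding was compared between wild-type mice and mice heterozygous for the Y657* truncation of *Pik3r1* (Pik3r1 WT/Y657*). The comparison was made within 24 of the 36 mice of the study, 6 in each of 4 groups (the other 12 were fed): wild-type mice fasted for 16 h, wild-type mice refed for 6 h after such a fast, and WT/Y657* mice in the same 2 states. For each gene the refeeding change (refed minus fasted, log2) in wild-type mice was subtracted from that in WT/Y657* mice. A positive difference, called higher below, means that the gene moved further up or less far down on refeeding in WT/Y657* mice, and a negative one, called lower, the reverse. Of 13604 genes tested, 308 (2.26%) had a refeeding change that differed by genotype at an adjusted p under 0.05, 104 of them higher (0.764%) and 204 lower (1.5%), by the quasi-likelihood test of edgeR after Benjamini-Hochberg adjustment. At an unadjusted p under 0.05 there were 2245 such genes.

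*Pik3r1* encodes the p85 alpha regulatory subunit of phosphoinositide 3-kinase, which binds tyrosine-phosphorylated insulin receptor substrates and brings the catalytic subunit to the membrane. When food returns after a fast, insulin acts through this kinase and AKT to switch the liver from glucose output to storage, to raise protein synthesis and to silence FOXO1 target genes. The Y657* allele, found in patients with SHORT syndrome, ends the protein within its last SH2 domain. It is carried in the germline, so that every tissue of the mouse has it and a change in liver RNA need not begin in the liver.

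All mice were C57Bl/6J males on chow, aged 16 weeks, and each gave 1 library from total liver RNA. In both genotypes and both states, 3 mice had numbers of a lower series (those labelled ONF_MT_806 to RF6_WT_828, where ONF is fasted and RF6 refed) and 3 of a higher series (RF6_WT_896 to ONF_MT_923), and the series was a block in the model. Total counts per library ranged from 8839488 to 19542775, with a median of 13237019, and no pair of libraries within a group agreed within sampling noise (in all 60 pairs the chi-square of their counts was at least 7.01 times its degrees of freedom). The i5 sequencing index followed feeding state, with D503 in 11 of 12 fasted libraries and D505 or D506 in all refed ones. The remaining fasted library, of WT/Y657* mouse ONF_MT_923 in the higher series, carried D504. D506 was carried by the 3 refed WT/Y657* mice of the higher series and by no others, so that genotype and index cannot be told apart among the refed mice of that series. In the lower series no i5 index separated the genotypes. The other index of each library (i7) was shared by no wild-type and WT/Y657* mice of the same series. Within a series, genotype and i7 index therefore cannot be told apart. The difference between the series in the genotype difference itself was called for 0 genes (edgeR, 678 at an unadjusted p under 0.05). The *Pik3r1* transcript, which sums both alleles, was at a median of 94.8 CPM (scaled counts relative to library size, range 82.5 to 106) in fasted wild-type mice and 99.4 (75.6 to 113) in fasted WT/Y657* mice. After refeeding the medians were 124 (117 to 139) and 152 (129 to 166). The ranges overlapped between genotypes in both states, and the refeeding change differed by 0.19 on the log2 scale (standard error 0.13, adjusted p = 0.475 by edgeR).

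The refeeding change itself was called for 4364 genes (32.1%) in wild-type mice, and the corresponding number for WT/Y657* mice was 4435 (32.6%). Between genotypes, 1912 genes (14.1%) differed in fasted mice, 6.87% of all genes being higher and 7.18% lower in WT/Y657* mice, and 12 (0.0882%) in refed mice, 0.0441% in each direction. Among the 308 genes whose response differed, 281 were called between genotypes in the fasted state and not in the refed state, 4 in the refed state and not in the fasted, 1 in both and 22 in neither. These contrasts share libraries with the difference in response and describe it without adding evidence. Before adjustment, 3850 genes had a p under 0.05 for genotype in the fasted state and 1436 in the refed state (edgeR). A gene that was not called in the refed state is therefore not shown to be equal between genotypes there. The median gene of the 104 called higher stood at -0.41 relative to wild-type on the log2 scale in fasted WT/Y657* mice and at 0.13 in refed mice. The median gene of the 204 called lower stood at 0.53 above wild-type in fasted mice and at -0.11 in refed mice. Of the 104, 40 fell on refeeding in wild-type mice and were not called in WT/Y657* mice, and 40 were not called in wild-type mice and rose in WT/Y657* mice. A further 6 fell in wild-type and rose in WT/Y657* mice, 10 rose in both and 8 fell in both. Of the 204, 84 rose in wild-type mice and were not called in WT/Y657* mice, 77 were not called in wild-type mice and fell in WT/Y657* mice, and 36 rose in wild-type and fell in WT/Y657* mice. The remaining 7 rose in both (5) or fell in both (2).

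**Figure D1:**
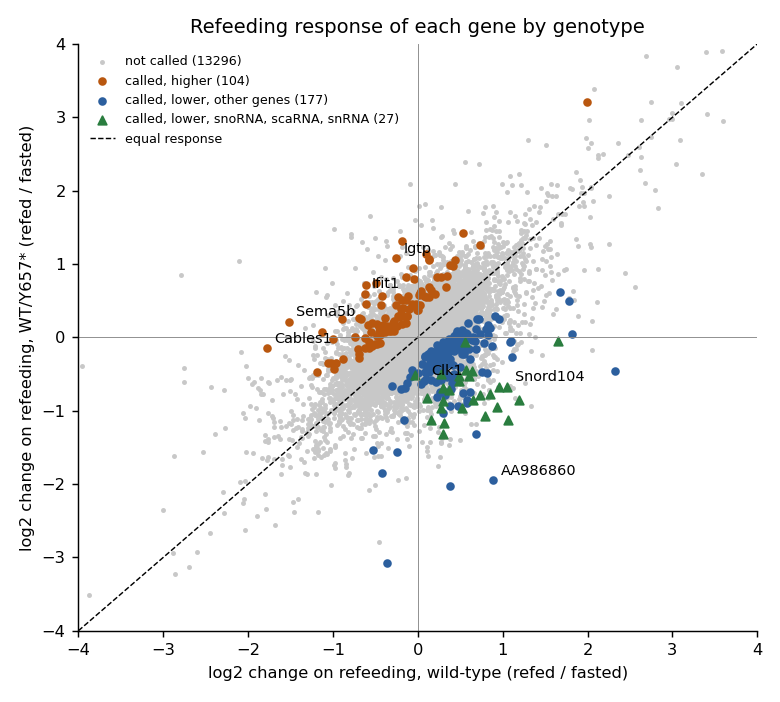
Log2 change on refeeding in WT/Y657* mice (vertical) against that in wild-type mice (horizontal) for the genes tested, 6 mice per group and state; 8 genes that were not called lie outside the axes. The 104 genes called higher lie above the line of equal response and the 204 called lower lie below it, with the 27 called small nuclear and nucleolar RNAs drawn as triangles.

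Small structured RNAs of the nucleus formed 1 group among the genes called lower. Small nucleolar RNAs (snoRNAs) guide the chemical modification of ribosomal RNA, the related scaRNAs of Cajal bodies modify the spliceosome's RNAs, and snRNAs are parts of the spliceosome. Of 69 such RNAs tested, 27 (39.1%) were called, all 27 lower, against 2.26% of all genes, and 68 of the 69 had a negative difference. This class was taken from the annotation after the called genes had been seen. Its median difference was -1.04 on the log2 scale, beside 0.02 over all genes tested. The median member changed on refeeding by 0.29 in wild-type livers and by -0.68 in WT/Y657* livers. It stood 0.58 above wild-type in fasted WT/Y657* mice and at -0.36 in refed mice. The 3 RNAs printed here are called members named by the size of their difference, shown because they carry the boxes that define the 2 families. Positions and letters are from GENCODE M21 on GRCm38. Capitals mark box C (TGATGA) and box D (CTGA) of the box C/D family, which guides methylation, or the ACA box that lies 3 bases from the end of the H/ACA family, which guides pseudouridylation.
Snord104: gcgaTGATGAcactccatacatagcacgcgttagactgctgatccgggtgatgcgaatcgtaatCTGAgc
SNORA14: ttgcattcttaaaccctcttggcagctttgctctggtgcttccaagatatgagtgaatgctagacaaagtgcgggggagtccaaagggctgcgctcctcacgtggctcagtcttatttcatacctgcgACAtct
Snora7a: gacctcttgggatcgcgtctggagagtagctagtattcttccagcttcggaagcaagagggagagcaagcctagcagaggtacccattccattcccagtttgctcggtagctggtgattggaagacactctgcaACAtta

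*Snord104* (ENSMUSG00000065126) lies at chr11:106500993-106501062 on the plus strand and within no tested gene of that strand. *SNORA14* (ENSMUSG00000065637, chr8:126944847-126944980, minus strand) lies inside *Tomm20*, and *Snora7a* (chr6:115807975-115808114, minus strand) inside *Rpl32*. The medians were close between the families. Among the 52 snoRNAs tested, 12 of the 32 with the ACA box at that place were called, with a median of -1.10. Of the 9 with boxes C and D within 20 bases of the ends, 3 were called with a median of -1.06, and of the 11 with neither, 4 were called with a median of -1.04.

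SNORA14 was at a median of 7.16 CPM in fasted wild-type mice (lowest 5.72, highest 10.3) and at 12.996 (11.3 to 19.7) in fasted WT/Y657* mice. After refeeding it was at 11.1 (9.02 to 12.7) in wild-type livers and at 6.78 (5.33 to 10.9) in WT/Y657* livers. The fasted ranges of the genotypes did not overlap, and in WT/Y657* mice every refed value lay under every fasted one. The refeeding change was 0.52 in wild-type livers and -0.96 in WT/Y657* livers, a difference of -1.48 (standard error 0.23, adjusted p = 0.00214 by edgeR). SNORA63, which lies in *Eif4a2*, was at a median of 33.7 CPM (31.04 to 34.2) in fasted wild-type and 46.9 (46.2 to 61.3) in fasted WT/Y657* mice. Its refed medians were 36.3 (34.9 to 48.8) and 23.1 (16.4 to 36.8). It was the only one of the 308 genes called between genotypes in both states, and its response differed by -1.24 (standard error 0.18, adjusted p = 0.00204). *Snora7a* had medians of 4.62 and 11.1 CPM in fasted wild-type and WT/Y657* mice, whose ranges did not overlap, and of 7.43 and 4.37 in refed mice, whose ranges did. Its response differed by -1.51 (standard error 0.30, adjusted p = 0.0122).

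Some members were called between genotypes in the refed state and not in the fasted one. Snord104 was at a median of 1.04 CPM (0.583 to 1.48) in fasted wild-type, 1.30 (0.924 to 2.07) in fasted WT/Y657*, 2.11 (1.58 to 2.99) in refed wild-type and 0.855 (0.715 to 1.15) in refed WT/Y657* mice. The refed ranges did not overlap, and the response differed by -1.73 (standard error 0.36, adjusted p = 0.0127). Snord22 had medians of 1.82 and 2.44 CPM in fasted and 3.55 and 1.34 in refed wild-type and WT/Y657* mice, overlapping in both states, with a response that differed by -1.64 (standard error 0.35, adjusted p = 0.0133). Both were called between refed genotypes (log2 differences -1.28 and -1.19), as was a snoRNA named SNORA70. Other members of the class with large differences included SNORA79 (-1.62), SCARNA20 (-1.88) and 2 loci annotated as U2, the snRNA that pairs with the branch point of introns (-1.63 and -1.71). U2 has many near-identical copies, and reads could be split among them.

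Most of these RNAs are cut from introns of other genes, and 20 of the 27 lay within a tested gene of the same strand. The median difference of those 20 was -1.38, and that of their 19 host genes was -0.11. Of the 20 RNAs, 12 lay in hosts whose difference was below 0 and 2 in hosts that were themselves called lower (*Rpl32* and *Rpsa*). The counting could assign reads from unspliced host RNA to the small RNA, and the part of such reads was not tested. Per mouse, the class level, taken as the median over the 69 RNAs of log2(CPM + 0.5) centred on each RNA's mean, ran from -0.33 to -0.07 in fasted wild-type and from 0.18 to 0.64 in fasted WT/Y657* mice, without overlap. In refed mice it ran from 0.02 to 0.24 in wild-type livers and from -0.50 to 0.22 in WT/Y657* livers. Of the 6 refed WT/Y657* mice 4 lay at -0.34 or below, and 2 of the lower series (RF6_MT_810 and RF6_MT_814) lay at 0.01 and 0.22. The median difference was -1.03 in the lower series and -0.99 in the higher one. In the lower series no i5 index separated the genotypes, but the i7 index did. Refed WT/Y657* mice with i5 index D506, all of the higher series, had class levels of -0.35, -0.50 and -0.34. Those with D505, all of the lower series, had levels of 0.01, 0.22 and -0.40. The part of either index was not tested. With a smooth offset for gene length and GC content in each library, 2 of the 69 were called and the class median was -0.41 in place of -1.04. With it, SNORA14 differed by -0.79 (adjusted p = 0.0498), SNORA63 by -0.48, *Snora7a* by -0.86, Snord104 by -0.80 and Snord22 by -0.95, and the last 4 were not called (adjusted p = 0.105, 0.106, 0.302 and 0.158). These RNAs form the short end of the length range (median length 140 bases) on which that offset is fitted.

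**Figure D2:**
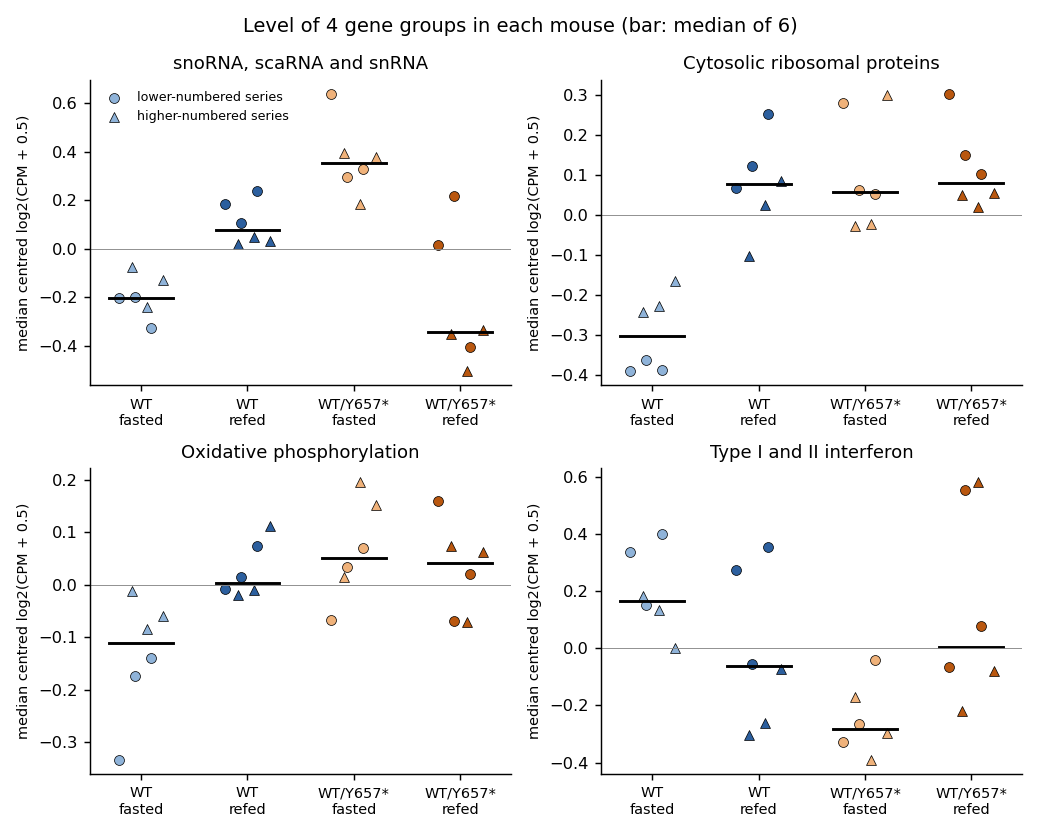
Level of 4 gene groups in each of the 24 mice, as the median over members of log2(CPM + 0.5) centred on each gene's mean; circles and triangles are the lower-numbered and higher-numbered series and bars the median of 6 mice. Small nuclear and nucleolar RNAs are highest in fasted and lowest in refed WT/Y657* mice, ribosomal protein transcripts are low in fasted wild-type mice alone among the 4 groups, and interferon genes are lowest in fasted WT/Y657* mice with a wide spread in refed ones.

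*Clk1*, a kinase that phosphorylates SR splicing factors, had the smallest p of all genes. It was at a median of 61.7 CPM (58.5 to 68.4) in fasted wild-type and 84.1 (72.4 to 94.8) in fasted WT/Y657* mice, without overlap. After refeeding it was at 67.4 (58.6 to 69.6) in wild-type livers and 55.2 (53.0 to 58.7) in WT/Y657* livers, so the order of the genotypes was turned round with a slight overlap. In WT/Y657* mice all 6 refed values lay under all 6 fasted ones. Its change was 0.08 in wild-type livers and -0.59 in WT/Y657* livers, a difference of -0.67 (standard error 0.09, adjusted p = 0.00112). It passed the threshold under all 34 alternatives counted for single genes, among which the fits of each series alone are not included. *Malat1*, a long RNA of nuclear speckles that was picked after its value had been seen, rose in wild-type mice from a median of 2716 CPM (2540 to 3009) to 4704 (3775 to 5416), without overlap. In WT/Y657* mice it had medians of 4162 CPM fasted (2708 to 4922) and 3787 refed (3374 to 4634). The difference was -0.85 (standard error 0.17, adjusted p = 0.0114).

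Some further genes that act in splicing, likewise picked after their values had been seen and from no fixed list, were called lower. *Clk4*, a kinase of the same family, had a difference of -0.60 (adjusted p = 0.0238), *Ccnl1*, a cyclin of nuclear speckles, of -0.68 (adjusted p = 0.00653), and the splicing factors *Hnrnph1* and *Srsf5* of -0.51 and -0.42 (adjusted p = 0.0238 and 0.0317). *Ccnl1* had medians of 30.6 and 38.1 CPM in fasted and 31.7 and 23.99 in refed wild-type and WT/Y657* mice. *Srsf5* had medians of 155 and 169 CPM in fasted and 179 and 136 in refed mice. For both, the ranges of the genotypes overlapped in each state. With the length and GC offset *Clk1*, *Malat1* and *Ccnl1* were called, and *Clk4*, *Hnrnph1* and *Srsf5* were not, with differences of -0.48, -0.36 and -0.30 (adjusted p = 0.0571, 0.112 and 0.191). *Srsf5* passed the threshold under 20 of 34 alternatives.

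Ribosomal protein transcripts formed a further group. These genes encode the protein parts of the cytosolic ribosome, and their mRNAs carry a motif through which mTORC1 controls their translation. Of 78 tested, 28 were called (35.9%, against 2.26% of all genes), all lower. A negative difference was found for 77, the exception being *Rpl28* at 0.07. The median difference was -0.38. The transcripts rose on refeeding in wild-type mice, with 68 of 78 called, all higher, and a median change of 0.36. In WT/Y657* mice the median change was -0.01 and 7 were called. In fasted mice 67 of 78 differed by genotype, with a median of 0.41 above wild-type, and in refed mice 0 did by edgeR (median 0.04), with 1 at an unadjusted p under 0.05.

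*Rpl41*, the smallest protein of the ribosome, was at a median of 67.9 CPM (60.7 to 71.8) in fasted wild-type and 112 (92.7 to 131) in fasted WT/Y657* mice. After refeeding it was at 96.9 (76.6 to 118) and 91.9 (81.2 to 116). Fasted wild-type mice lay below all others, and the remaining groups overlapped. The response differed by -0.77 (standard error 0.13, adjusted p = 0.00372), and it passed the threshold under all 34 alternatives counted for single genes. *Rpl17* had medians of 71.8 and 106 CPM in fasted and 103 and 97.3 in refed mice and a difference of -0.72 (standard error 0.14, adjusted p = 0.00894). *Rpl35a* had medians of 37.7 and 49.4 CPM in fasted and 54.8 and 48.8 in refed mice and a difference of -0.61 (standard error 0.12, adjusted p = 0.0113). Many ribosomal protein genes have processed pseudogenes that share their sequence, which could split reads. The median difference of the list was -0.49 in the lower and -0.27 in the higher series, and with the length and GC offset 20 of 78 were called and the median was -0.33.

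Part of the subunits of oxidative phosphorylation were called lower as well. Of 78 tested, 16 were called (20.5%, against 2.26% of all genes), all lower, and the median difference was -0.20. The median member rose by 0.15 in wild-type mice and changed by -0.02 in WT/Y657* mice, and in fasted mice it stood 0.23 above wild-type. The called members were mostly small accessory subunits. *Uqcrq*, *Uqcrh* and *Uqcr10* belong to complex III, and *Cox7b*, *Cox7a2*, *Cox6c* and *Cox4i1* to complex IV. *Ndufb6*, *Ndufb9*, *Ndufb11*, *Ndufs4* and *Ndufs6* belong to complex I, and *Atp5e* and *Atp5k* to the ATP synthase. *Ndufa4* and *2010107E04Rik* were called as well. The 15 members with a positive difference, none of them called, included catalytic and matrix subunits such as *Ndufv1*, *Ndufs1*, *Sdha*, *Uqcrc1*, *Atp5a1* and *Atp5b*. Median gene length was 1216 bases for the 16 called and 2634 for those 15. *Cox7b* had medians of 144 CPM (120 to 177) and 211 (185 to 271) in fasted wild-type and WT/Y657* mice, without overlap, and of 180 (163 to 215) and 178 (161 to 200) after refeeding. Its response differed by -0.61 (standard error 0.13, adjusted p = 0.013). *Uqcrq* had medians of 106 and 133 CPM in fasted mice, without overlap, and of 121 and 116 in refed mice, and differed by -0.46 (standard error 0.09, adjusted p = 0.0122). With the length and GC offset 3 of the 78 were called, the list median was -0.10 in place of -0.20, and *Cox7b* was not called (-0.39, adjusted p = 0.0865). Of 77 mitochondrial ribosomal proteins 3 were called (3.9%, against 2.26% of all genes). These were *Mrpl50* (-0.45) and *Mrpl20* (-0.42), called lower, and *Mrps2* (0.42), called higher, with a list median of -0.07.

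Gene length and base composition moved with the difference across all genes. With genes split by length into 10 bins of 1345, the shortest bin (66 to 1582 bases) had a median difference of -0.13, with 75 genes called lower and 3 higher. In the other bins by length the median lay between -0.01 and 0.05. By GC content the median rose from bin to bin, from -0.11 in the lowest (27.5 to 41.1%) to 0.11 in the highest (57.6 to 75.9%), and the lowest bin held 41 genes called lower and 0 called higher. With the offset for both, 121 genes were called in place of 308, and the list medians moved as given above for the small RNAs, the oxidative phosphorylation genes and the ribosomal proteins.

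**Figure D3:**
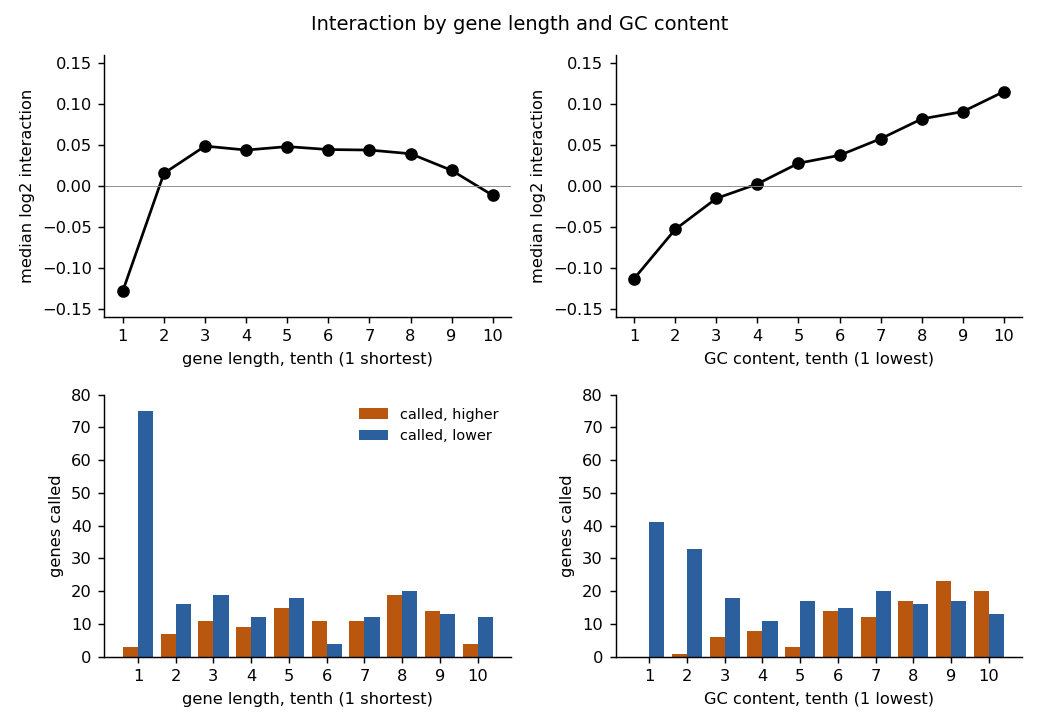
Median log2 difference in refeeding response (top) and numbers of genes called (bottom) in 10 bins of gene length (left) and GC content (right), 1345 genes per bin. The shortest bin holds 75 genes called lower, and the median rises from -0.11 to 0.11 from the lowest to the highest GC content.

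Interferon-responsive genes formed a group among the genes called higher. Interferons act through JAK kinases to induce antiviral proteins, GTPases that attack intracellular pathogens and the machinery of antigen presentation. Of 47 tested, 8 were called (17.02%, against 2.26% of all genes), all higher. A positive difference was found for 46, with *Nlrc5* the exception at -0.05. The median difference was 0.65. The median member changed on refeeding by -0.30 in wild-type livers and by 0.33 in WT/Y657* livers. In fasted mice it stood at -0.44 relative to wild-type (22 of 47 called) and in refed mice at 0.14 (0 called by edgeR, 7 at an unadjusted p under 0.05). The promoters of 4 of these genes are printed because the members moved together. Each is the 250 bases before the RefSeq start on GRCm38.p6, read in the direction of transcription. Capitals mark matches on either strand to a form of the interferon-stimulated response element (ISRE: TTTC, any 2 bases, TTTC) and to TTCNNNGAA, the gamma-activated site (GAS) of genes induced by interferon gamma.
Ifit1: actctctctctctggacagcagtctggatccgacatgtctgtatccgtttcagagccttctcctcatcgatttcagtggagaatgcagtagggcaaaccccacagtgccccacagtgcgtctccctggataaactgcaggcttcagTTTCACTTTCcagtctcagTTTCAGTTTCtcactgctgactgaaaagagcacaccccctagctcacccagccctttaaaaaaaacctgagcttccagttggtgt
Igtp: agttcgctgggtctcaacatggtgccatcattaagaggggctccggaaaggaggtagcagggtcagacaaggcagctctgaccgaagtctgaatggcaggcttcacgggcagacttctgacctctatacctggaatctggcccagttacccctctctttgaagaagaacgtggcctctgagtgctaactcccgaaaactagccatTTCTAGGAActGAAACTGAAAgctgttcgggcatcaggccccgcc
Irgm2: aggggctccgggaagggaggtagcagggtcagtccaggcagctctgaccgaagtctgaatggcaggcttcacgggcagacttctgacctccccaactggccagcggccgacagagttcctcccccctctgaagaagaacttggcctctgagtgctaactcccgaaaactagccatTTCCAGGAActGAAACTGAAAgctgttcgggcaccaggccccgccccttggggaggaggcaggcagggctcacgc
Cxcl10: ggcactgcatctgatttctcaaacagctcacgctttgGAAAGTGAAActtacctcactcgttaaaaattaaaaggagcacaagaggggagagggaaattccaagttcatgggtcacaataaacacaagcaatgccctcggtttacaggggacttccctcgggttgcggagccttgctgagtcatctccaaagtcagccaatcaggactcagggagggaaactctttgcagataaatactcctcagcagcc

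The *Ifit1* promoter is at chr19:34640639-34640888 and that of *Cxcl10* at chr5:92348890-92349139 on the minus strand, and those of *Igtp* and *Irgm2* are at chr11:58199306-58199555 and chr11:58214727-58214976. In the window of 250 bases before to 50 after the start, the ISRE form was found for 17 of the 33 listed genes with a promoter in the table (51.5%) and for 3.99% of all 27025 genes with one. The GAS form was found for 8 of 33 (24.2%) and for 9.55% of all. Among all genes called higher the ISRE form was found in 9 of 72 promoters (12.5%), 5 of them of called members of the list. Among genes called lower it was found in 10 of 121 (8.26%). The GAS form was found in 9.72% of the promoters of genes called higher and in 10.7% of those called lower. The list was written from known interferon targets, so that its shares describe its genes.

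*Ifit1*, which binds viral RNA caps, was at a median of 12.6 CPM (10.1 to 15.2) in fasted wild-type and 5.45 (3.68 to 6.57) in fasted WT/Y657* mice, without overlap. After refeeding it was at 8.05 (5.75 to 13.3) in wild-type livers and 7.62 (5.23 to 11.7) in WT/Y657* livers. It fell by 0.63 on the log2 scale in wild-type mice and rose by 0.60 in WT/Y657* mice, a difference of 1.22 (standard error 0.27, adjusted p = 0.015). *Tap1*, the peptide transporter of antigen presentation, had medians of 31.3 and 19.8 CPM in fasted mice, without overlap, and of 23.2 and 24.4 in refed mice, with a difference of 0.99 (standard error 0.22, adjusted p = 0.0203).

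The immunity-related GTPases spread widely among refed mice. *Igtp* was at 35.6 CPM (24.7 to 50.1) in fasted wild-type, 20.2 (16.9 to 25.7) in fasted WT/Y657*, 26.9 (22.4 to 42.4) in refed wild-type and 41.0 (22.2 to 73.2) in refed WT/Y657* mice. The genotypes overlapped in both states. Its difference of 1.33 (standard error 0.34, adjusted p = 0.0453) passed the threshold under 12 of 34 alternatives. *Irgm2* and *Irgm1* differed by 1.14 and 0.77 (adjusted p = 0.0324 and 0.0308), and *Igtp*, *Irgm1* and *Irgm2* are related in sequence, so that reads could be shared among them. *Igtp* and *Irgm2* also have the same deposited locus (chr11:58199556-58222779), and whether they share reads was not tested. The chemokine *Cxcl10* differed by 1.32 (adjusted p = 0.0444), the antiviral gene *Oasl1* by 1.05 (adjusted p = 0.0487) and *Cmpk2*, a mitochondrial nucleotide kinase induced by interferon that was not on the list, by 1.21 (adjusted p = 0.0126). *Cxcl10* and *Oasl1* passed under 15 and 10 of 34 alternatives. *Cmpk2* fell in wild-type mice from a median of 10.96 CPM (8.65 to 14.5) to 4.47 (4.17 to 8.25), without overlap, and had medians of 5.65 and 6.64 in fasted and refed WT/Y657* mice.

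Per mouse, the interferon level ran from 0.00 to 0.40 in fasted wild-type and from -0.39 to -0.04 in fasted WT/Y657* mice, without overlap, and from -0.30 to 0.36 and from -0.22 to 0.58 in refed mice, with wide overlap. Without the refed mouse RF6_MT_898, which had the highest *Igtp* and *Tap1* of its group, the median difference of the list was 0.40 and 6 genes were called. The count ran from 3 to 11 with single mice left out. With the length and GC offset the median was 0.74 and 6 genes were called. The median difference was 0.35 in the lower and 0.83 in the higher series, and 0 of the genes passed in either series fitted alone. The medians of immune cell markers were also larger in the higher series, a difference between series that was not tested. Kupffer cell and macrophage markers had a median difference of -0.09 in the lower and 0.55 in the higher series (0.25 in all mice, 13 of 16 positive), and markers of lymphocytes, natural killer cells and neutrophils of -0.49 and 1.12 (0.14 in all mice, 6 of 11 positive). In bulk liver, fewer cells of a type and less RNA per cell cannot be told apart. The 16 Kupffer cell and macrophage markers summed to 653 to 1071 CPM in fasted wild-type, 717 to 1132 in fasted WT/Y657*, 585 to 1141 in refed wild-type and 610 to 1378 in refed WT/Y657* mice. The 11 tested markers of lymphocytes, natural killer cells and neutrophils summed to at most 35.1, 44.0, 61.8 and 84.6 CPM in the same order. None of these markers was called by edgeR, DESeq2 or limma, nor were those of endothelial, stellate, biliary and erythroid cells. Over the 91 markers of all lists, hepatocyte markers included, 4 had an unadjusted p under 0.05. The part of such cells in the interferon result was not tested. The 16 hepatocyte markers summed to between 104156 and 143455 CPM in all mice, and 0 were called (1 at an unadjusted p under 0.05).

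**Figure D4:**
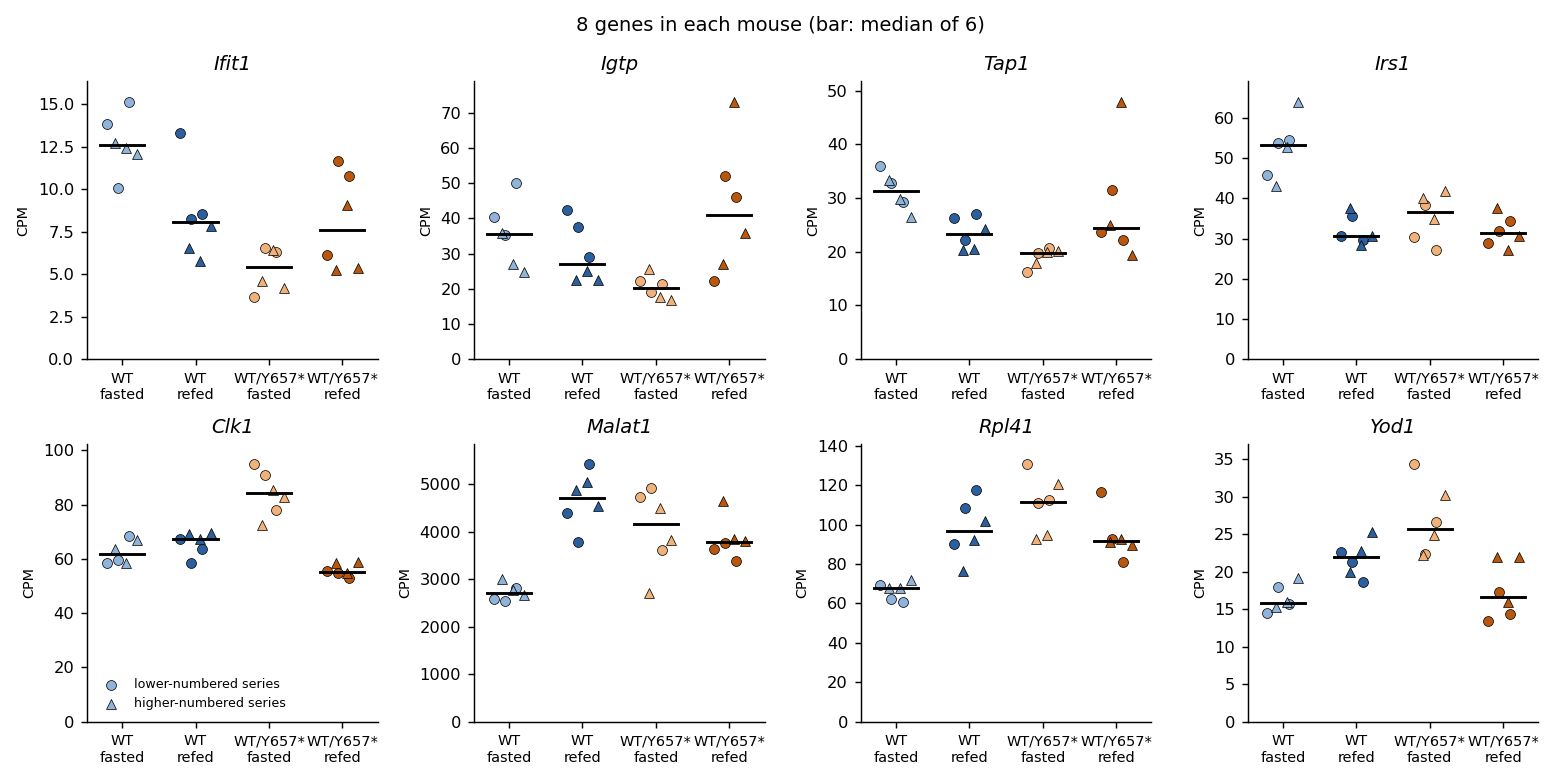
Counts relative to library size (CPM) of 8 genes in each of the 24 mice (circles and triangles, lower-numbered and higher-numbered series; bars, median of 6). *Ifit1* and *Tap1* are lowest and *Clk1* highest in fasted WT/Y657* mice without overlap with fasted wild-type mice, *Irs1* is highest in fasted wild-type mice, and *Malat1* and *Rpl41* are lowest in fasted wild-type mice.

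Large single differences outside these groups concerned regulators of growth and the cell surface. *Sema5b*, a semaphorin of the cell surface, fell in wild-type mice from 6.26 CPM (4.59 to 11.1) to 2.23 (1.36 to 3.35) and had medians of 2.48 and 2.55 in fasted and refed WT/Y657* mice, a difference of 1.73 (standard error 0.39, adjusted p = 0.0191). *Cables1*, a regulator of cyclin-dependent kinases, differed by 1.62 (adjusted p = 0.0261) and *Id3*, an inhibitor of basic helix-loop-helix factors, by 1.23 (adjusted p = 0.036). *Mcm3*, part of the replicative helicase, had medians of 3.95 and 3.57 CPM in fasted and 4.27 (2.51 to 5.38) and 6.68 (5.96 to 7.79) in refed wild-type and WT/Y657* mice. Here the refed ranges did not overlap, and the response differed by 1.001 (standard error 0.24, adjusted p = 0.0243).

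Among protein-coding genes called lower, *AA986860* had the largest difference, -2.84 (standard error 0.63, adjusted p = 0.0194). Its medians were 0.82 CPM (0.467 to 1.39) in fasted wild-type, 5.05 (1.76 to 10.8) in fasted WT/Y657*, 1.57 (0.617 to 2.85) in refed wild-type and 1.34 (0.778 to 3.18) in refed WT/Y657* mice. *Yod1*, a deubiquitinase, rose in wild-type mice and fell in WT/Y657* mice. It had medians of 15.8 CPM (14.5 to 19.2) and 25.7 (22.3 to 34.3) in fasted and 21.96 (18.6 to 25.3) and 16.6 (13.5 to 21.9) in refed wild-type and WT/Y657* mice. Its response differed by -1.03 (standard error 0.17, adjusted p = 0.00313) and passed under all 34 alternatives counted for single genes. *Gm16573*, an antisense transcript, differed by -1.43 (adjusted p = 0.00112).

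In the list of insulin receptor and phosphoinositide 3-kinase signalling, 2 of 39 genes were called (5.13%, against 2.26% of all genes), both higher. The list median was 0.03, beside 0.02 over all genes tested, with 20 members positive and 19 negative. *Irs1*, the adaptor that binds the p85 subunit, fell in wild-type mice from 53.3 CPM (43.0 to 64.1) to 30.7 (28.5 to 37.6), without overlap. In WT/Y657* mice its medians were 36.7 (27.2 to 41.9) fasted and 31.3 (27.1 to 37.5) refed. The fasted genotypes did not overlap, and the response differed by 0.55 (standard error 0.15, adjusted p = 0.0448). *Phlpp1*, a phosphatase that acts on AKT, fell in both genotypes, from 44.2 CPM (37.0 to 45.0) to 26.8 (23.8 to 28.2) in wild-type and from 28.7 (26.98 to 34.9) to 24.4 (20.1 to 28.6) in WT/Y657* mice, and differed by 0.42 (standard error 0.11, adjusted p = 0.0449). Both lay near the threshold, and passed under 16 and 12 of 34 alternatives.

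Several genes of lipid and glucose metabolism that refeeding switches had differences that were not called. Of the 22 genes tested whose liver transcript or regulator activity the study's paper names, 0 were called by edgeR (2 at an unadjusted p under 0.05), and 1 each by DESeq2 and limma. The lowest adjusted p by edgeR was 0.0709, and the gene called by the other tools was the same: *Srebf1*, the master regulator of fatty acid synthesis. It was at a median of 78.4 CPM (64.6 to 139) in fasted wild-type and 46.0 (23.1 to 54.2) in fasted WT/Y657* mice, without overlap, and at 210 (137 to 248) and 189 (152 to 275) after refeeding. It rose by 1.19 in wild-type livers and by 2.23 in WT/Y657* livers, a difference of 1.04 (standard error 0.30). The differences were 0.36 for *Fasn* (fatty acid synthase), -0.92 for *G6pc* (glucose-6-phosphatase) and -0.43 for *Igfbp1*, a FOXO1 target (adjusted p = 0.714, 0.399 and 0.878). No gene was called (edgeR) in the lists of lipogenesis (32 tested), cholesterol synthesis (30), fatty acid oxidation (49), gluconeogenesis (25), glycogen (18), insulin and FOXO1 responsive genes (29), bile acids (27), amino acid catabolism (51), the clock (22), glucocorticoid responsive genes (22), immediate early genes (29), growth hormone and IGF binding proteins (21), heat shock (22), translation initiation factors (39) or the mitochondrial genome (12). These lists were put together because no member was called by edgeR. Over their 399 genes 62 had an unadjusted p under 0.05, beside 2245 of all 13604 genes tested (16.5%). DESeq2 called 9 of the 399 and limma 3. Of the 9 called by DESeq2, 6 were glucocorticoid responsive genes (*Cebpd*, *Lpin1*, *Nr3c1*, *Per1*, *Tsc22d3* and *Zbtb16*). Medians of these lists lay between -0.31 (glucocorticoid responsive genes) and 0.27 (immediate early genes). *Trib3* (2.03, adjusted p = 0.128), *Zbtb16* (-1.57, adjusted p = 0.0553), *Lpin1* (-1.47, adjusted p = 0.108) and *Bcl6* (-2.28, adjusted p = 0.148) had large differences that varied among mice and were not called.

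Single members of other lists were called. In glycolysis *Pfkl*, the liver phosphofructokinase, was called higher (0.50, adjusted p = 0.0264), with medians of 40.6 and 32.9 CPM in fasted and 37.4 and 42.4 in refed wild-type and WT/Y657* mice. *Pdk2* and *Pfkfb2*, picked after their values had been seen, control pyruvate dehydrogenase and the level of fructose 2,6-bisphosphate. *Pdk2* was called higher (0.62, adjusted p = 0.0114) and *Pfkfb2* lower (-0.83, adjusted p = 0.0104). *Pfkfb2* was at medians of 32.3 CPM (29.1 to 37.2) and 60.4 (39.0 to 75.3) in fasted wild-type and WT/Y657* mice, without overlap. Its deposited locus (chr1:130689043-130729253) is also that of *Yod1*, and *AA986860* lies beside it (chr1:130731976-130744621). Whether these 3 genes share reads was not tested. *Slc7a11*, the cystine transporter, was called lower (-1.29, adjusted p = 0.0317), as was *Slc38a2*, a neutral amino acid transporter (-0.54, adjusted p = 0.0378). They were the 2 called of 31 tested in the list of ATF4 targets (6.45%, against 2.26% of all genes). The median of that list was 0.28, of the opposite sign. In autophagy *Bnip3* (-0.49) and *Gabarapl2* (-0.41) were called lower, and in the proteasome *Psma7* (-0.38) and *Psma5* (-0.36). These were 2 of 44 (4.55%) and 2 of 43 (4.65%) tested, against 2.26% of all genes. *Sec61g* of the translocon (-0.71), the interleukin 6 receptor *Il6ra* (-0.74) and *Nop10* of H/ACA ribonucleoproteins (-0.40) were called lower, and the valyl-tRNA synthetase *Vars* (0.42) higher. *Foxa2*, a transcription factor of hepatocyte identity that was picked after its value had been seen, had medians of 26.1 and 15.8 CPM in fasted mice, without overlap, and of 25.6 and 26.02 in refed mice, and differed by 0.96 (standard error 0.26, adjusted p = 0.0475). *Glce*, a heparan sulfate epimerase, was the gene called higher that differed in the refed state alone, with medians of 35.7 CPM (32.4 to 36.6) in refed wild-type and 43.9 (42.4 to 47.9) in refed WT/Y657* mice, without overlap (0.37, adjusted p = 0.0265).

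The differences were set side by side in the 2 mouse number series, which both enter the pooled fit. All 308 called genes had the same sign in each series. They were called from the mice of both series together, so that this agreement was largely fixed in advance and adds no evidence. The median of the genes called higher was 0.62 in the lower and 0.50 in the higher series, and that of the genes called lower -0.79 and -0.48. Within the model with a separate term for each series, 183 genes (1.35%) were called in the lower and 1 (0.00735%) in the higher series.

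**Figure D5:**
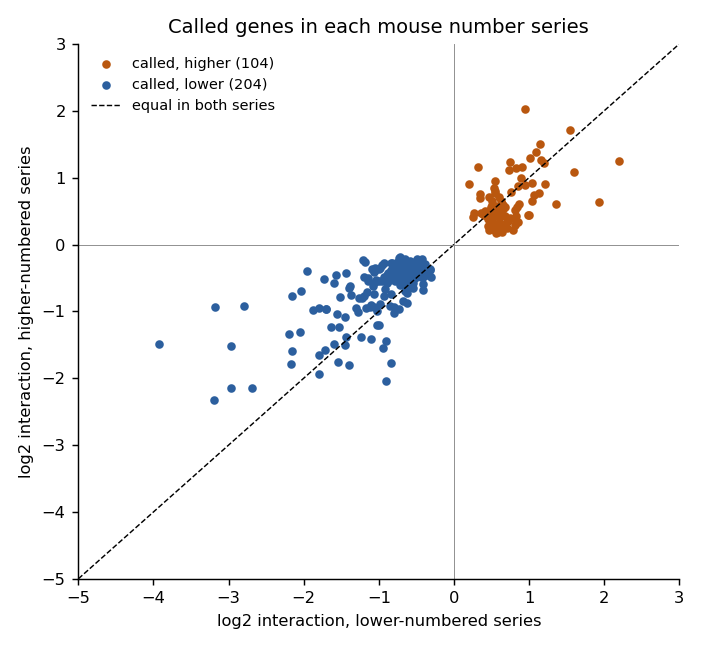
Log2 difference in refeeding response of the 308 called genes in the higher-numbered series (vertical) against the lower-numbered series (horizontal), 3 mice per group in each. All 308 have the same sign in both series, from whose mice together they were called, and the dashed line marks equal values.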

How the data were processed

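Values are estimated counts that the authors deposited as raw, not normalized, 1 per mouse for each of 38283 genes. The submitters' notes name Cuffdiff, SAMtools, featureCounts, edgeR and the build mm9, but the loci in the table match GENCODE M21 on GRCm38, which was used here for lengths, GC content and positions. A second deposited table of values fitted by the authors was not used. Counts (3.66% of those above 0 not whole) were rounded. With edgeR 4.0.16 (R 4.3.3), low genes were removed by filterByExpr, TMM factors computed, and glmQLFit (robust) fitted with 4 groups and the series as a block; glmQLFTest gave p-values, adjusted by the Benjamini-Hochberg method at a threshold of 0.05. CPM are counts per library total after TMM scaling, with totals of 8839488 to 19542775 per mouse. The members and lists were chosen with earlier results of these data known. Named were the 10 largest called differences in each direction (mean of at least 1 CPM, no gene model numbers or pseudogenes), the 6 smallest p, up to 3 members of each list by p, and genes the paper names; others are stated as picked after their values were seen, and results on some genes are not reported here. Lists were counted, not tested. Alternatives included DESeq2 1.42.0, limma 3.58.1, other scalings and filters, and each mouse left out. The alternatives counted for single genes were mostly fits with 1 mouse left out. They did not include the fits of each series alone, of all 36 libraries or with the block fitted in each feeding state. In simulated counts of 13509 genes for this comparison, genes were changed by 0.5, 1, 2 and 3 on the log2 scale. Of these 20.4%, 57.1%, 92% and 100% were called, 8 of 142 calls were false, and 0 calls were made with no gene changed. The counts were drawn gene by gene, without a trend with length or GC content, so that the false calls do not cover such a trend.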

Additional observations from a re-analysis of the deposited data

Results flagged for a closer look

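The difference between genotypes in the refeeding change, tested as an interaction, was past the threshold for 308 genes, which are described above.

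In 8 of 184 groups of 6 mice a single mouse stood apart from the other 5 by Dixon's criterion, where chance gives about 1 in 20. Among refed wild-type mice, RF6_WT_815 had the highest *Ifit1* (13.3 CPM, others 5.75 to 8.54) and *Cmpk2* (8.25 CPM, others 4.17 to 5.14), RF6_WT_901 the highest *Cxcl10* (2.92 CPM, others 1.47 to 1.75) and RF6_WT_828 the highest *Rpl17* (136 CPM, others 92.2 to 104). Among refed WT/Y657* mice, RF6_MT_897 had the highest *Malat1* (4634 CPM, others 3374 to 3840) and RF6_MT_810 the highest *Rpl41* (116 CPM, others 81.2 to 92.9). In fasted mice, *SNORA14* was highest in WT/Y657* mouse ONF_MT_806 (19.7 CPM, others 11.3 to 14.3) and *Sema5b* in wild-type mouse ONF_WT_825 (11.1 CPM, others 4.59 to 6.56).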

How the results depend on the processing

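Results rest on 6 mice per group, on counts that sum near-identical copies in an unknown way and on a threshold near which many genes lie. Under the other settings run, every call shared with the fit reported had the same sign. Without the block of mouse number series 295 genes were called (94 higher, 201 lower; 282 shared), and mouse numbers pair no animals across groups. Of 308 genes called (104 higher, 204 lower), counts moved by over 1.5 times as follows. The lower series alone gave 60 (4 and 56), the higher series alone 3 (1 and 2), DESeq2 511 (191 and 320), library size alone 201 (89 and 112, 44.3% higher against 33.8%), the length and GC offset 121 (39 and 82) and Bonferroni adjustment 11 (0 and 11). The series fits hold fewer samples; the other causes were not tested. Among ribosomal proteins, 28 became 7 in the lower series, 0 in the higher and 15 with library size alone. Among oxidative phosphorylation genes, 16 became 3, 0 and 10 in the same order, and 3 with the offset. Among interferon genes, 8 became 0 and 0 in the series, and among small RNAs, 27 became 4 and 2, and 2 with the offset. With 1 mouse left out the total ran from 156 to 414, those higher from 42 to 133, those lower from 107 to 281, ribosomal proteins from 14 to 37, oxidative phosphorylation from 7 to 19, interferon genes from 3 to 11 and small RNAs from 18 to 28. The total moved by over 1.5 times without ONF_WT_807 (179), ONF_WT_824 (182), ONF_WT_825 (190), ONF_WT_919 (159), ONF_MT_806 (157), ONF_MT_923 (156), RF6_WT_828 (183), RF6_WT_901 (164), RF6_MT_814 (205) and RF6_MT_817 (181). Of the genes named one by one, *Igfbp1* was the only one reversed by leaving out a mouse, with differences from -1.35 to 0.0593 (reported value -0.43), the positive one without ONF_MT_827.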

Other observations

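Other RNAs that are not translated also had differences below 0. Of 216 long intergenic RNAs tested, 170 were negative, beside 6392 of all 13604 genes tested. Of these RNAs 10 were called (4.63%, against 2.26% of all genes), all lower, and the median of the class was -0.40. All 12 small RNAs of the miscellaneous class were negative (median -0.81, 1 called, 8.33%), as were 9 of 10 mitochondrial tRNAs (median -0.68, 1 called, 10%). Protein-coding genes had a median of 0.03. *Ip6k2*, an inositol hexakisphosphate kinase that was picked after its value had been seen, was at a median of 15.5 CPM (10.1 to 17.97) in fasted wild-type and 29.3 (22.3 to 34.8) in fasted WT/Y657* mice, without overlap, and at 9.99 and 7.42 after refeeding, with a difference of -1.43 (adjusted p = 0.00418 by edgeR).

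The 12 fed mice were not part of the comparison. In fed wild-type and WT/Y657* mice the median of *Clk1* was 52.0 and 51.9 CPM, that of *Rpl41* 86.2 and 82.7 and that of SNORA14 9.135 and 10.1, with overlapping ranges for each. *Ifit1* ran from 4.32 to 7.11 CPM in fed wild-type and from 7.25 to 13.6 in fed WT/Y657* mice, without overlap, the order of the genotypes being the reverse of that in fasted mice. *Igtp* reached 88.9 CPM in 1 fed WT/Y657* mouse, where fed wild-type mice lay between 18.3 and 21.04. These fed values were not tested.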
